A study of Mus musculus with 6 samples.

Results

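Long introns that stay in a small share of transcripts are described here: introns of more than 1000 nt whose retention level, the percent of transcripts that keep the intron, averaged under 25% over 6 libraries of mouse macrophages. They are the retained-intron events of the authors' JuncBASE table, a program that derives splicing levels from reads across and inside introns, that had a value in all 6 libraries, a mean of these values under 25% and a length over 1000 nt. This gave 525 introns in 450 genes, out of 10376 splicing events, 3305 retained introns and 1992 retained introns with 6 values. The members were chosen by their measured retention values and by length, so the level of the introns is a description and not a result. RNA was sequenced from bone marrow-derived macrophages of wild-type C57BL/6 mice kept in room air (3 libraries) or exposed to cigarette smoke (3 libraries). Marrow freed of erythrocytes was cultured in medium with L929 cell supernatant, which drives macrophage differentiation, and the cells were taken on day 11. The age and sex of the mice and the length and dose of the exposure are not given in the sources used here, nor is it stated whether each library came from a mouse of its own, so the p-values measure the spread between these libraries.

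An intron is removed by the spliceosome, which reads a donor site at the 5′ end of the intron, a branch point, and a pyrimidine-rich acceptor site at its 3′ end. A retained intron often carries a stop codon in the reading frame, and such transcripts are held in the nucleus or degraded. Retention is usually described for short, GC-rich introns, and in myeloid cells it is known to change during differentiation and activation. A low level in total RNA can also come from transcripts that have not finished splicing, which these levels do not separate from a stable retained form.

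The donor and acceptor sequences show what kind of introns these are, so those of the introns that carry the results below come first. They were read from GENCODE M21 transcripts (GRCm38), which hold intron bases only where an exon of another transcript runs over the intron end. A donor was readable for 226 of the 525 introns and an acceptor for 194. Donors are printed as 6 exon bases and 14 intron bases, and acceptors as 24 intron bases and 6 exon bases, with the terminal dinucleotide of the intron in capitals. The first set belongs to introns among the 10 with the lowest p for smoke against room air.
Hdac5 donor, chr11:102198783-102198802, minus strand: gactggGTaggcagtggggc
Hdac5 acceptor, chr11:102197780-102197809, minus strand: gcaccctcccatgtccctcatcAGgatatt
Iah1 donor, chr12:21319926-21319945, plus strand: tgaaggGTgaggagcaggcc
Iah1 acceptor, chr12:21321310-21321339, plus strand: gacctctggagttttcgccaacAGgttgca
Kif23 acceptor, chr9:61932182-61932211, minus strand: ctaagccctctttctttcccacAGactccc
Map4k4 acceptor, chr1:40014082-40014111, plus strand: atgaaattgaaatttacatttcAGactcag
Mars donor, chr10:127308244-127308263, minus strand: tccagtGTgagtagacaccg

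All 194 readable acceptors ended in AG, and 225 of 226 donors began with GT. The exception was Srsf10, which encodes an SR-type splicing regulator and whose intron began with AT. Its first 8 bases were ATATCCTT, which with GTATCCTT is the donor form read by the minor (U12-type) spliceosome, and 4 of the 226 donors (1.77%) began with either form, read on the strand of the gene. Among introns of 1000 nt or less with a low level 5 donors did (0.797% of 627 readable), and among introns at 25% or more 1 did (0.571% of 175). The donors of Srsf10, Naa20 and Wls are shown because they depart from the major form, again with the first 2 intron bases in capitals. Naa20 and Wls were named after their sequences had been seen.
Srsf10 donor, chr4:135858404-135858423, plus strand: tgttcaATatcctttcttca
Naa20 donor, chr2:145908610-145908629, plus strand: gaaactGTatcctttctgag
Wls donor, chr3:159911818-159911837, plus strand: ctggctGTatccttactcaa

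Retention of the Srsf10 intron (chr4:135858410-135861773) was, in the order of the replicate numbers that is kept below, 14.81%, 18.6% and 15.09% with room air and 7.69%, 5.88% and 6.0% with smoke. Every smoke library lay below every room air library (limma unadjusted p = 0.0192, Benjamini-Hochberg adjusted p = 0.349). The Wls intron, in the gene of the carrier that brings Wnt proteins to the cell surface, had 13.79%, 10.17% and 11.76% in room air and 0.0%, 0.0% and 4.76% after smoke, again with no overlap. In the Naa20 intron, whose gene encodes a subunit of an N-terminal acetyltransferase, they overlapped, with 0.0%, 7.14% and 2.38% against 0.0%, 7.14% and 6.52%. Wls had an adjusted p of 0.247 and Naa20 of 0.883 in limma.

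The letters GTAAGT, the strongest common continuation of a major donor, opened 33 of the 226 readable donors (14.6%), against 9.89% in introns of 1000 nt or less and 9.71% in introns at 25% or more. Since an intron end is readable only under an annotated exon, these shares describe a selected portion of each set. The median GC content of the 52 introns that lie whole within an annotated exon was 45.2% (32.4% to 56.6%), against 53.4% over 494 introns of 1000 nt or less and 49.8% over 132 introns at 25% or more. In 47 of these long introns the reading frame of the upstream exon, followed into the intron, met an in-frame stop codon. Introns whose frame met no stop were not counted apart from those whose frame could not be followed, so no share is given. The stop began at a median of 27 nt into the intron (2 to 238 nt), and within 100 nt in 38. The readings below run from the first codon with an intron base to the stop codon, which is in capitals, and they show how early the frame of a retained copy ends.
Neu1, intron chr17:34932829-34934002, plus strand: gtttcaccctgtggaTAG
Ubap2l, intron chr3:90006618-90008255, minus strand: ggtaagttacctttgacccttgctTAG
Lilrb4a, intron chr10:51492164-51493169, plus strand: ggtaagcaccttccacccataatcactTAG

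The introns had a median length of 1941 nt (1001 to 19571 nt; quartiles 1345 and 2889 nt) and a median level of 4.1%. They lay on 19 autosomes and, for 10 of them, on the X chromosome. Both ends of 520 introns matched an annotated intron exactly. By position, 485 were between coding exons, 21 in a 5′ UTR and 12 in a 3′ UTR, and 105 (20%) were the first and 171 (32.6%) the last intron of at least 1 transcript. The other introns of low level differed most in their cover by annotated exons. Only 52 long introns (9.9%) lay whole within an exon of another transcript, 42 of them in a transcript annotated as a retained-intron form, against 40.3% of introns of 1000 nt or less and 55.5% of introns at 25% or more. An exon overlapped part of 64.2% of the long introns, against 34.5% of the shorter ones, and 23.8% held a whole exon of another transcript, against 3.82%.

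Small RNA genes lay inside 9 of the introns. The 4 that hold a microRNA, a short RNA that represses messages paired to its seed (bases 2 to 8), are shown because the mature sequences lie within the measured intron. Mature sequences are from RefSeq (GRCm38.p6), with the seed in capitals, and all 7 had different seeds.
mmu-miR-5125, in Srrm2: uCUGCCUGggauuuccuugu
mmu-miR-3064-5p, in Ddx5: uCUGGCUGuuguggugugcaaa
mmu-miR-3064-3p, in Ddx5: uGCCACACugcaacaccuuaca
mmu-miR-7013-5p, in Pi4kb: uAUGAAGAggccaguguuguag
mmu-miR-7013-3p, in Pi4kb: cCACACUUacuguugccucuuccu
mmu-miR-7050-5p, in Fxyd5: aCAGGAGAagggggugagaga
mmu-miR-7050-3p, in Fxyd5: uCUCAGCCuuuaucuccccag

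The intron of Ddx5 (chr11:106782694-106783958, minus strand), whose gene encodes an RNA helicase that takes part in splicing and microRNA processing, had levels of 23.3%, 22.96% and 19.88% in room air and 12.87%, 11.86% and 12.48% after smoke. The groups were apart by more than their spread, with means of 22.0% ± 1.88 and 12.4% ± 0.509 (SD, n = 3). That of Fxyd5, a regulator of the sodium pump, had 16.13%, 20% and 19.44% against 0.0%, 5.0% and 14.29%, again with no overlap. In Srrm2, the gene of a large splicing co-activator, and in Pi4kb, the gene of a lipid kinase of the Golgi, the groups overlapped. All 9 introns with a small RNA gene had a lower mean after smoke, by 5.21 percentage points on average, where 94.1% of all 525 introns were lower. None of them reached an adjusted p under 0.05 in limma. Ddx5 itself was lower in expression after smoke (log2 fold change -0.43, SE 0.14; adjusted p = 0.0292 by DESeq2 in the authors' deposited table).

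The JuncBASE table holds levels without read counts, the depth of each library was not examined, and the libraries were not alike. Of all 10376 events, 4169 had no value in cigarette smoke replicate 1, against 1 to 398 in the other libraries. Of the 525 introns, 388 (73.9%) were listed at 0% in cigarette smoke replicate 1 and 280 (53.3%) in replicate 2, but 62 (11.8%) in replicate 3. In room air, 71 (13.5%), 16 (3.05%) and 57 (10.9%) were at 0%. Across the 525 introns, Spearman's rho between libraries was 0.54 to 0.63 within room air, 0.38 to 0.53 within smoke and 0.4 to 0.63 between the groups. Requiring a value in every library removed 390 of 915 long introns of low level, 365 of which had none in cigarette smoke replicate 1. The table lists only events whose levels span at least 5 percentage points, so each of the introns had to vary (median range 8.33 points). All 10 macrophage marker genes were listed in the authors' deposited table, where they summed to 89076 normalized counts for room air and 92732 for smoke. Of the other lists, 2 of 8 neutrophil, 4 of 6 B cell, 1 of 6 erythroid, 4 of 6 dendritic and 6 of 6 stromal markers were listed there. Neutrophil genes S100a9, Ly6g, Mpo and Elane, the B cell gene Pax5 and the erythroid globin genes had no entry. In the same order, the summed group means in the authors' deposited table were, for room air and smoke, 0.2 and 0.195, 146 and 123, 0.0 and 0.508, 1.66 and 1.02, and 44.5 and 10.3. The part of the stromal difference in the results below was not tested.

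The mean level of the listed long introns was lower in macrophages from smoke-exposed mice. The listing bears on this direction, since an intron of low mean enters the table only through a library with a high value, which for 450 of the 525 was a room air library. The mean over the 525 introns was 7.6%, 9.02% and 6.66% in room air and 2.18%, 3.28% and 5.27% after smoke. Every smoke library lay below every room air library, and cigarette smoke replicate 3 lay nearest to room air. The group means, 7.76% ± 1.19 and 3.58% ± 1.57 (SD, n = 3), were -4.18 percentage points apart, with smoke at 46.1% of the room air level. Introns of 1000 nt or less with a low level (1229) had 8.17% ± 0.959 and 3.88% ± 1.37, with smoke at 47.5% of the room air level. Introns at 25% or more (238) differed by as many points, -4.04, but from 71.9% in room air, so that smoke stood at 94.4% of it. Leaving out cigarette smoke replicates 1 and 2, the libraries with the most zeros, reduced the difference of the long introns to -2.49 percentage points. The part of depth and of missing values in the difference was not tested.

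**Figure D1:**
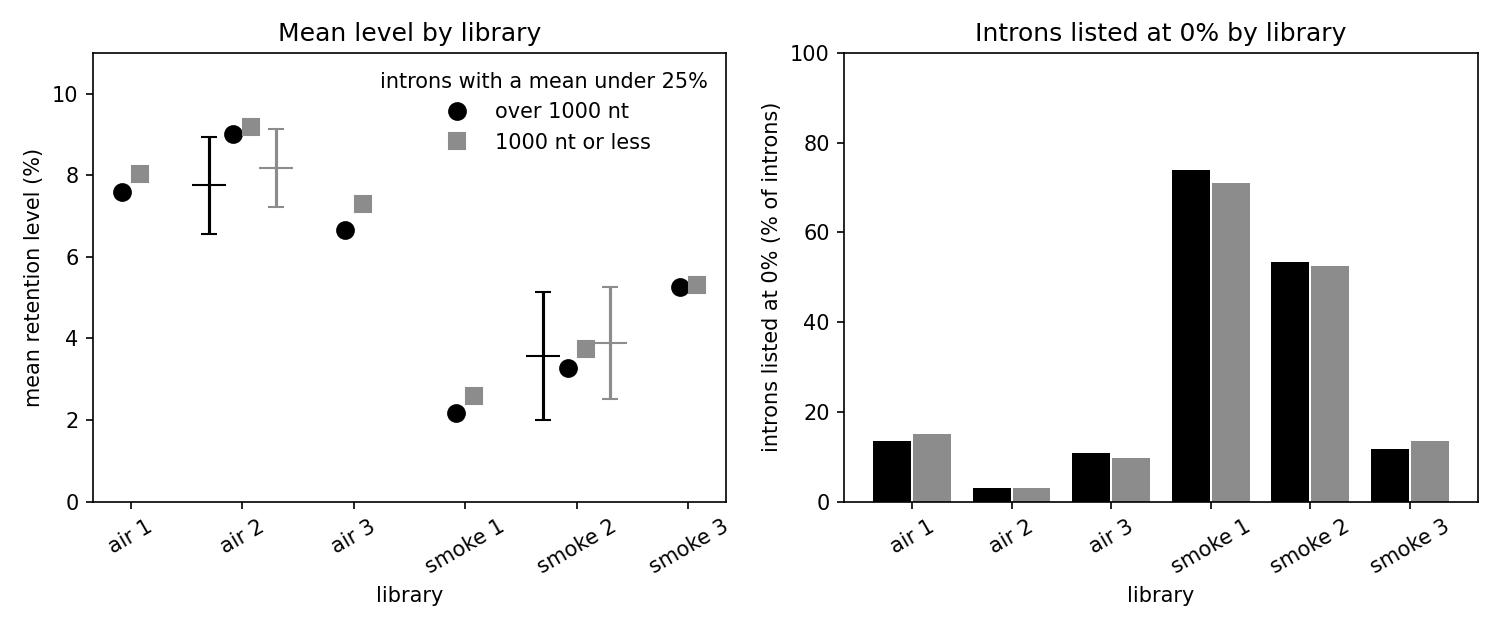
Mean retention level in percent (left; points are libraries, bars the group mean ± SD of 3) and percent of introns listed at 0% (right) in each library, for introns with a mean under 25% that are over 1000 nt (black) or 1000 nt or less (grey). The 2 lengths run in parallel, and cigarette smoke replicates 1 and 2 hold 73.9% and 53.3% of the long introns at 0%.

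Of the 525 introns, 494 (94.1%) had a lower mean after smoke and 31 a higher one, and the median of the differences was -3.69 percentage points. The share lower was 67.3% over all 5933 events with 6 values and 92.5% over all retained introns with 6 values. The long introns thus stood near the background of all retained introns, and these shares say nothing particular of length. In 192 introns (36.6%) every smoke value lay below every room air value, against 19.3% of all events and 38.7% of retained introns, and in 1 intron every smoke value lay above, against 3.84% of all events. The highest of the 6 values was in a room air library for 450 introns (85.7%), against 84.1% of retained introns with 6 values. With cigarette smoke replicate 3 as the only smoke library, 81.7% were lower. Among the 97 introns with no zero in any library, a subset that the smoke values help to choose, 85 were lower, against 515 of 602 retained introns with no zero. Their means were 14.4% ± 1.56 in room air and 9.59% ± 1.2 after smoke (SD, n = 3).

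**Figure D2:**
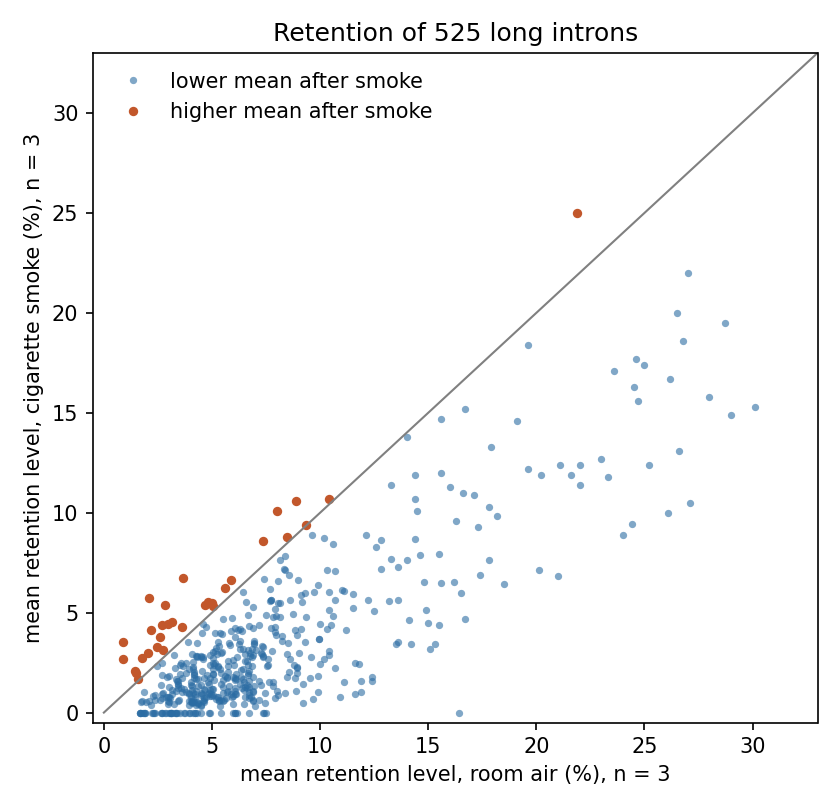
Mean retention level of each of the 525 long introns in room air (x axis, percent, 3 libraries) and after cigarette smoke (y axis, percent, 3 libraries), with the line of equal levels. The 494 introns below the line were lower after smoke, the 31 above it higher.

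No long intron passed an adjusted p of 0.05 in limma (lowest 0.128), nor did any of the 10376 events (0%). At an unadjusted p under 0.05, 139 long introns (26.5%) were lower after smoke, against 9.29% of all events and 25.7% of retained introns with 6 values, and 0 were higher, against 1.55% of all events. In the authors' deposited table of the same events, 15 of the introns (2.86%) had a raw p under 0.05, against 4.15% of all events. The count of 139, beside 964 of all events, was 73 beside 667 without room air replicate 2, 87 beside 794 without cigarette smoke replicate 1, and 212 beside 2037 without cigarette smoke replicate 3. Without cigarette smoke replicates 1 and 2 it was 76 beside 892, with 1 smoke library left that is assumed to vary like the room air libraries. The count past the adjusted threshold was 117 without cigarette smoke replicate 3, among 1131 of all 10376 events, and 112 of the 117 had 0% in both remaining smoke libraries. It was 3 when only events with 6 values were fitted.

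By level, introns with a mean under 3% (147) had 3.44% ± 1.07 in room air and 0.816% ± 1.05 after smoke, which is 23.7% of the room air level. Smoke stood at 35.7% of room air in those from 3% to 5% (171), at 48.5% from 5% to 10% (141) and at 60.2% from 10% to 25% (66), the last at 19.6% ± 1.69 and 11.8% ± 2.61 (SD, n = 3). In points the order was the reverse, from -2.62 in the lowest to -7.81 in the highest band. The shorter introns of low level had the same order, with 22.7%, 32.6%, 46.4% and 66.0% of room air. Both orders are a description with no reading of their own. In the lowest band of the long introns the smoke libraries had 0.0454%, 0.391% and 2.01%, so its share rests mostly on cigarette smoke replicate 3. The bands were cut from the same levels, and the listing of events that span at least 5 percentage points bears on them as well.

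Length beyond the limit made little difference. The 165 introns of 1001 to 1500 nt differed by -4.23 percentage points, and the 111 of 1501 to 2000 nt by -4.62. The 185 introns of 2001 to 4000 nt differed by -3.93, and the 64 introns over 4000 nt by -4.03. Across 523 introns with a host gene, Spearman's rho of length was 0.01 with the level and 0.03 with the difference. Introns within an annotated exon (52) had a median level of 6.82% and means of 10.9% ± 1.23 in room air and 4.86% ± 1.87 after smoke. Introns with no annotated exon on either strand (159) had a median of 3.53% and means of 6.38% ± 1.17 and 2.39% ± 1.33 (SD, n = 3). First introns differed by -4.29 percentage points and the others by -4.16.

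The 10 introns with the lowest p in limma had 0% in all 3 smoke libraries and a value above 0% in all 3 room air libraries. That of Kif23, a kinesin of the central spindle in dividing cells (chr9:61932188-61935379, minus strand, 3192 nt), had 20%, 19.23% and 10.0% in room air. Its difference was -4.32 log2 odds (SE 0.5, adjusted p = 0.128), a size set by the pseudocount of 1 because all smoke values were 0%: it was -5.28 with 0.5 and -2.31 with 5. The intron of Ebi3, a subunit shared by the cytokines IL-27 and IL-35 (chr17:55954482-55956184, plus strand), had 8.33%, 5.88% and 8.0% in room air (adjusted p = 0.128). The intron of Mars, the methionyl-tRNA synthetase gene (chr10:127305858-127308257, minus strand), had 10.0%, 6.67% and 5.88% (adjusted p = 0.128). Kif23, Ebi3 and Mars were the 3 introns that passed when only events with 6 values were fitted.

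Map4k4 encodes a kinase upstream of JNK, and its intron (chr1:40011842-40014105, plus strand) had 3.57%, 4.35% and 6.67% in room air. Those of Tango2 (chr16:18301553-18302685), a gene of Golgi organization, and Mrpl37 (chr4:107062069-107064384), a mitochondrial ribosomal protein, had 7.69%, 3.33% and 9.09%, and 3.45%, 3.92% and 5.26%. The intron of Preb, the exchange factor that starts vesicle coats at the endoplasmic reticulum (chr5:30956335-30957887), had 2.94%, 6.82% and 5.0%. Iah1, an esterase gene (chr12:21319932-21321333), had 10.0%, 9.09% and 3.03%. Fam13b had 9.52%, 3.7% and 4.65%, and the class IIa histone deacetylase gene Hdac5 (chr11:102197786-102198796) 3.57%, 3.28% and 6.67%. The adjusted p-values of these 7 lay between 0.155 and 0.162 in limma. The host genes of the 10 introns had adjusted p-values of 0.0964 to 0.838 in the authors' deposited table of expression.

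**Figure D3:**
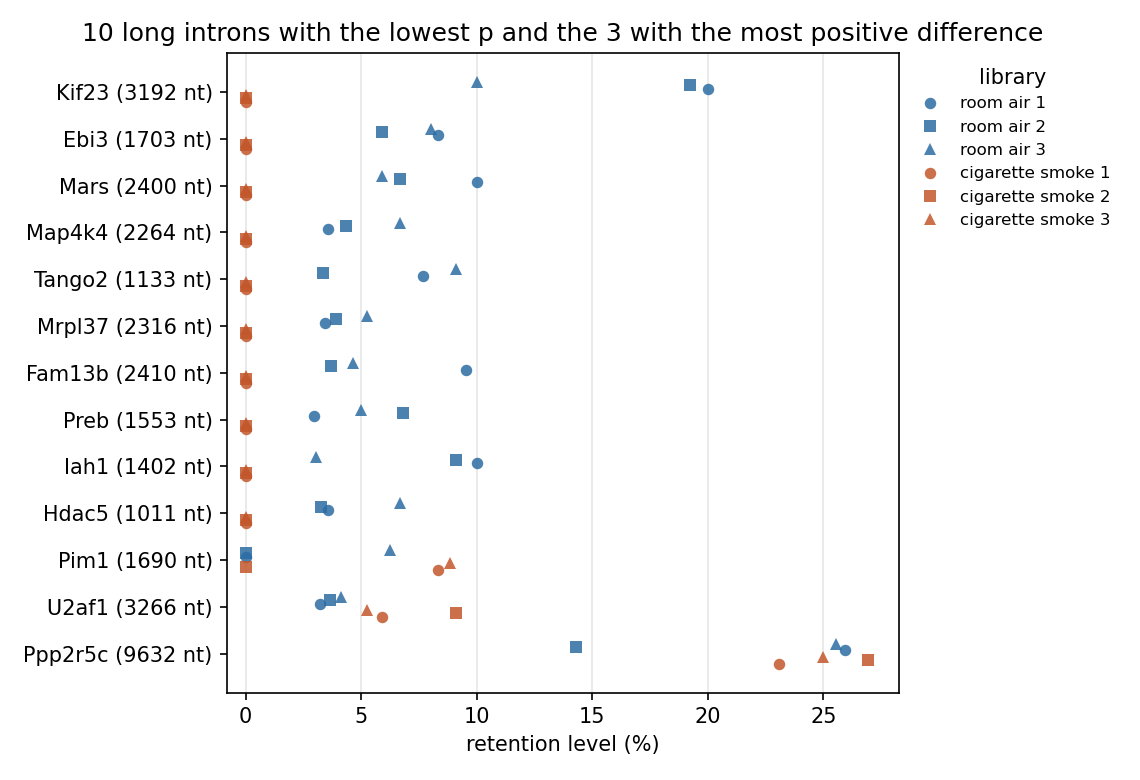
Retention level in percent in each of the 6 libraries for the 10 long introns with the lowest p in limma and the 3 with the most positive difference. In the first 10 all smoke libraries lie at 0%, and in U2af1 alone the smoke libraries all lie above room air.

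The 3 introns with the most positive difference were in Pim1, U2af1 and Ppp2r5c. Pim1 encodes a survival kinase induced by cytokines, and its intron (chr17:29492032-29493721, plus strand) had 0.0%, 0.0% and 6.25% in room air and 8.33%, 0.0% and 8.85% after smoke. The intron of U2af1, the U2AF subunit that reads the acceptor AG (chr17:31651713-31654978, minus strand), had 3.23%, 3.64% and 4.11% in room air and 5.88%, 9.09% and 5.26% after smoke. It was the one long intron of the 525 with all smoke values above all room air values. Its difference was 0.75 log2 odds (SE 0.46), with a limma unadjusted p of 0.148 and an adjusted p of 0.537. Its donor was readable and departs from the strong form at the bases after GT.
U2af1 donor, chr17:31654965-31654984, minus strand: agccagGTttgtgtgttgct

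The intron of Ppp2r5c, a regulatory subunit of protein phosphatase 2A (chr12:110570769-110580400, plus strand, 9632 nt), had 25.93%, 14.29% and 25.53% in room air and 23.08%, 26.92% and 25% after smoke. The groups overlapped, and without room air replicate 2 its difference was -0.06 log2 odds in place of 0.28. It was also one of the 3 introns of the highest level. Those of Psap, the precursor of the saposins of the lysosome (chr10:60296003-60297536), and of Qk, an RNA-binding regulator of splicing (chr17:10209632-10213358), were the others. Psap had 29.17%, 28.26% and 28.57% in room air and 15.38%, 15.38% and 27.65% after smoke. Qk had 25.81%, 27.03% and 28.12%, and 17.65%, 15.38% and 33.01%, so that cigarette smoke replicate 3 was the highest of its 6 libraries.

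The longest introns were in Coro7, Nrros and Golph3l, with 19571, 17706 and 16000 nt. The intron of Coro7, a coronin of the Golgi (chr16:4635439-4655009), had 8.57%, 8.33% and 5.0% in room air and 0.0%, 4.55% and 4.26% after smoke. That of Nrros, which anchors latent TGF-beta on myeloid cells, lies in the 5′ UTR (chr16:32147674-32165379) and had 4.55%, 6.0% and 7.14%, and 0.0%, 2.86% and 0.0%. In both, the groups did not overlap. Golph3l (chr3:95591906-95607905) had a value above 0% in 1 library, 5.0% in room air replicate 2.

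At the level limit, the first introns outside were in Srsf2 (25% after rounding), Nxf1 (25.6%) and Srsf11 (25.6%), with Psap, Qk and Ppp2r5c just inside. Room air values of the Srsf2 intron were 32.65%, 35.57% and 24.18%, and smoke values 17.39%, 17.11% and 23.16%. At the length limit, the introns of Cc2d1b (1000 nt) and Lilr4b (999 nt) were just outside. Those of Dpm2 and Gnpda1 (1001 nt each) were just inside, with room air values of 11.76%, 16.22% and 8.57%, and 3.7%, 6.48% and 7.14%. Their smoke values were 11.76%, 0.0% and 5.08%, and 0.0%, 0.0% and 4.04%.

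Genes with more than 1 long intron numbered 65, of which 57 had 2 and 8 had 3 (Cln3, H2afy, Irgm1, Mknk1, Myo1f, Plekhm2, Stx2 and Xaf1). Introns of 1 gene share its RNA, and 19 of the 525 share a splice site with another, so they are not independent. Of the 24 introns in the 8 genes, 23 were lower after smoke and 12 had no overlap between the groups, with differences from -14.92 to 0.33 percentage points. Over all 525 introns 94.1% were lower and 36.6% had no overlap, and over all events 67.3% and 19.3%. The largest were in Xaf1, an interferon-induced gene of a pro-apoptotic protein. Its intron chr11:72304862-72306563 had 20%, 33.93% and 19.15% in room air and 6.67%, 8.7% and 12.96% after smoke. Its neighbours chr11:72303463-72304665 and chr11:72306653-72308606 had means of 21% ± 1.85 and 10.6% ± 2.68 in room air, and 6.82% ± 7.34 and 4.83% ± 2.86 after smoke (SD, n = 3). The exception of the 24 was an intron of H2afy, the macroH2A1 gene (chr13:56084286-56088251), with 5.0%, 13.73% and 6.67% against 0.0%, 12.5% and 13.89%.

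Others of these 8 genes were Myo1f, Cln3 and Irgm1. The 3 introns of Myo1f, a leukocyte myosin, had means of 4.19% to 6.86% in room air and 1.25% to 2.33% after smoke. The intron of Cln3, a lysosomal membrane protein, at chr7:126577922-126579172 had 5.41%, 4.69% and 6.0% against 0.0%, 0.0% and 1.06% (limma adjusted p = 0.177). In Irgm1, an immunity-related GTPase gene, the groups overlapped in 2 of the 3 introns. The intron chr11:48868781-48871093 had 8.57%, 10.53% and 8.33% in room air and 8.33%, 0.0% and 8.33% after smoke, and chr11:48867004-48868561 had 7.69%, 7.14% and 4.17% against 0.0%, 0.0% and 5.41%.

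Srsf10, Ddx5 and Lsm4 are not among the 35 splicing genes listed for this comparison. The listed genes of the splicing machinery held 14 of the long introns, in 13 genes. Of these introns 12 were lower after smoke and the median of the differences was -2.37 percentage points, against -3.69 over all 525, and 4 had no overlap between the groups. Over all 525 introns the shares were 94.1% lower and 36.6% without overlap. The intron of Sf3b1, the U2 snRNP protein that holds the branch point (chr1:55014563-55016375, minus strand), had 25.49%, 26.09% and 22.43% in room air and 10.0%, 22.22% and 14.58% after smoke. The intron of Sf1, which first reads the branch point (chr19:6368440-6371266), had 9.86%, 12.2% and 7.91%, and 4.55%, 3.45% and 5.3%. In Sf1, the groups were apart at an unadjusted p of 0.0494 and an adjusted p of 0.458 in limma. The introns of Clk1, a kinase of SR proteins, and Hnrnpu, a nuclear RNA-binding protein, had 7.22%, 9.4% and 6.67% against 3.85%, 0.0% and 5.44%, and 6.09%, 10.46% and 5.59% against 0.0%, 4.65% and 5.26%. Groups overlapped in U2af2, the U2AF subunit that reads the pyrimidine tract, in the SR protein gene Srsf3 and in Prpf31, a protein of the tri-snRNP.
Sf3b1 donor, chr1:55016362-55016381, minus strand: cagatgGTaattctttccca
Sf3b1 acceptor, chr1:55014557-55014586, minus strand: tcctgttgctgttcttttctgcAGgaggga
Sf1 donor, chr19:6368434-6368453, plus strand: ggacagGTtgggaaacagtt
Sf1 acceptor, chr19:6371243-6371272, plus strand: gtaatgaggatctgtctcccacAGgtcccc
Clk1 donor, chr1:58416999-58417018, minus strand: taaactGTaagttcttgata
Clk1 acceptor, chr1:58414679-58414708, minus strand: actgattatgtgtactttctccAGttttgc

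The 6 sites of Sf3b1, Sf1 and Clk1 are printed because the products of these genes take part in splicing or in its regulation. Of the same 35 genes, the authors' deposited table called 1 higher and 3 lower in expression at an adjusted p under 0.05, against 4.15% and 3.53% of all tested genes. In the authors' deposited table Prpf31 was higher (log2 fold change 0.43, SE 0.1, adjusted p = 0.00094 by DESeq2). Clk1 (-0.68, SE 0.17, adjusted p = 0.00508), Srsf11 (-0.50, SE 0.14, adjusted p = 0.0142) and Sf3b1 (-0.33, SE 0.11, adjusted p = 0.0467) were lower in the authors' deposited table.

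Innate sensing and inflammatory genes held 6 of the long introns, in 5 of 69 listed genes. Of these, 5 were lower after smoke, the median of the differences was -2.17 percentage points, and 2 had no overlap, against 94.1% lower and 36.6% without overlap over all 525. Aim2 encodes a sensor of cytosolic DNA, and its intron chr1:173462321-173463858 had 9.3%, 6.17% and 4.05% in room air and 0.0%, 0.0% and 2.41% after smoke. Its other intron, chr1:173459850-173461906, had 4.76%, 2.63% and 0.0% against 0.0%, 0.0% and 6.98%, and the groups overlapped. The intron of Oas1a, an oligoadenylate synthetase that answers double-stranded RNA (chr5:120899306-120901869), had 16.88%, 20.86% and 14.15% against 6.06%, 13.73% and 8.12%, with no overlap. Nlrp3, an inflammasome sensor (chr11:59558554-59565039), had 3.33%, 5.13% and 1.89% against 0.0%, 0.0% and 3.64%. Mx1, an antiviral GTPase (chr16:97448373-97450367), had 3.12%, 0.0% and 5.56% against 0.0%, 0.0% and 2.38%. Tbk1, the kinase that activates interferon regulatory factors (chr10:121554025-121555986), was the one with a higher mean after smoke, with 6.82%, 10.67% and 6.56% against 7.69%, 12.5% and 10.14%. None of the 6 had an adjusted p under 0.288 in limma. Of the 69 genes, 8 were called higher and 4 lower in the authors' deposited table of expression, against 4.15% and 3.53% of all tested genes.

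**Figure D4:**
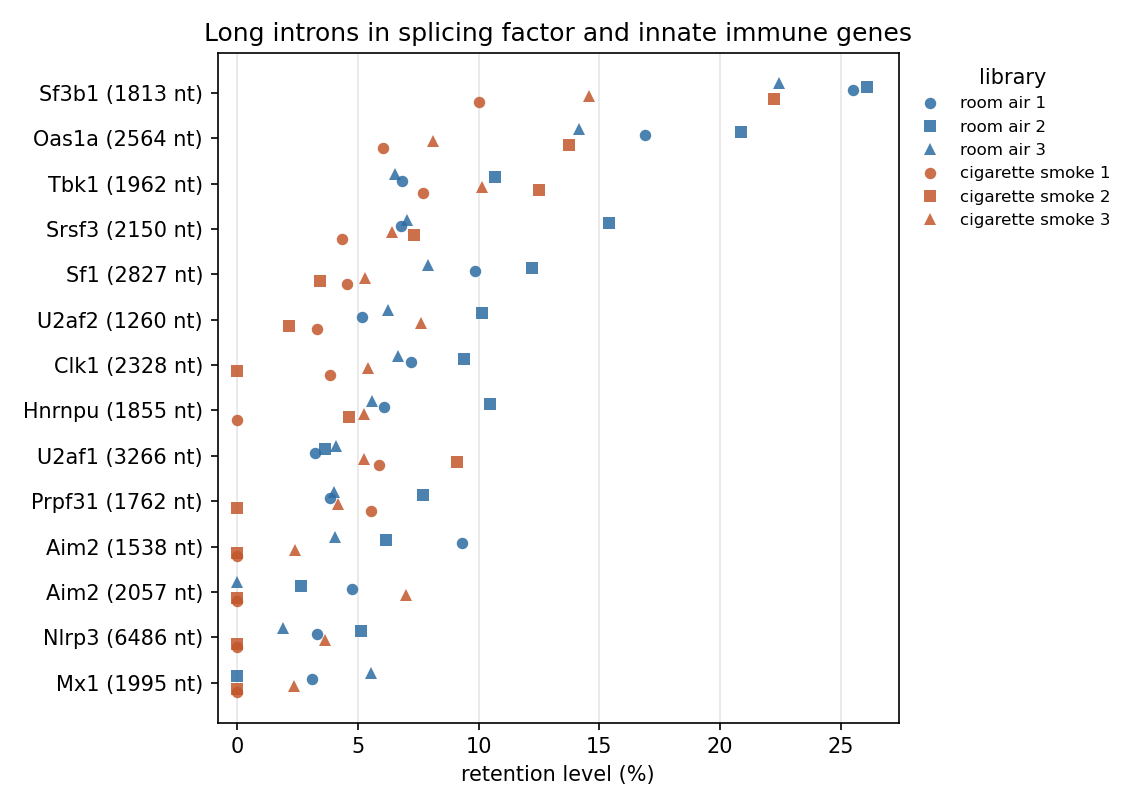
Retention level in percent in each of the 6 libraries for long introns in splicing factor and innate immune genes, 8 and 6 introns. Room air libraries lie to the right in most introns, and smoke libraries lie to the right in U2af1 alone with no overlap.

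The authors' deposited rMATS table, the output of a second program that the sample descriptions list beside JuncBASE, held 51 of the 525 introns with identical ends. At a false discovery rate under 0.05 it called 34 of them (66.7%). The share was 14.5% of its 3887 introns and 21% of its introns over 1000 nt. It was 37.1% of the 186 matched introns of 1000 nt or less. Matched introns had to span at least 5 percentage points in JuncBASE in these libraries, and the rMATS table was not chosen that way. The shares of 14.5% and 21% are thus no like background, and the excess over them is not a result. The median JuncBASE level of the matched long introns was 6.41%, against 3.98% for the unmatched, and 31 of the 51 lay within an annotated exon. The table gives a difference of set 1 minus set 2 without naming the sets, so it has no direction here. Set 1 was higher in 50 of the 51, and all 34 calls were of that sign, from 1.7 to 13.5 percentage points. Among the matched introns of 1000 nt or less, set 1 was higher in 172 of 186 and in all 69 calls. Across the 51 introns the rMATS difference and the JuncBASE difference of smoke minus room air were related with Pearson's r at -0.71 and Spearman's rho at -0.69. Since the sample descriptions list both tables for these libraries, the 2 differences are not independent, and the relation is a description.

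Among the 51 matched introns, the lowest false discovery rate in the authors' deposited table was that of Lilrb4a (1.22e-10, 9.0 percentage points), an inhibitory receptor of myeloid cells. In JuncBASE its intron (chr10:51492164-51493169, plus strand) had 20.08%, 20.45% and 19.93% in room air and 10.4%, 12.12% and 13.23% after smoke, with no overlap and no zero.

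The intron of Ubap2l, an RNA-binding protein of stress granules (chr3:90006618-90008255), had 13.51%, 14.04% and 7.27% in room air and 0.0%, 0.0% and 2.82% after smoke. The authors' deposited table gave it 7.6 percentage points (false discovery rate 5.85e-09). The intron of Neu1, the lysosomal sialidase gene (chr17:34932829-34934002), had 14.29%, 13.6% and 13.04% against 0.0%, 4.55% and 6.0%. It differed by 7.7 percentage points in the authors' deposited table (false discovery rate 1.04e-07). Groups overlapped in Camk1, a calmodulin-dependent kinase gene (2.44%, 7.69% and 5.0% against 2.27%, 1.75% and 4.11%), and in Stx12, an endosomal syntaxin gene (4.0%, 7.14% and 2.7% against 0.0%, 0.0% and 5.26%). The authors' deposited table called both, at 5.6 and 7.6 percentage points.

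**Figure D5:**
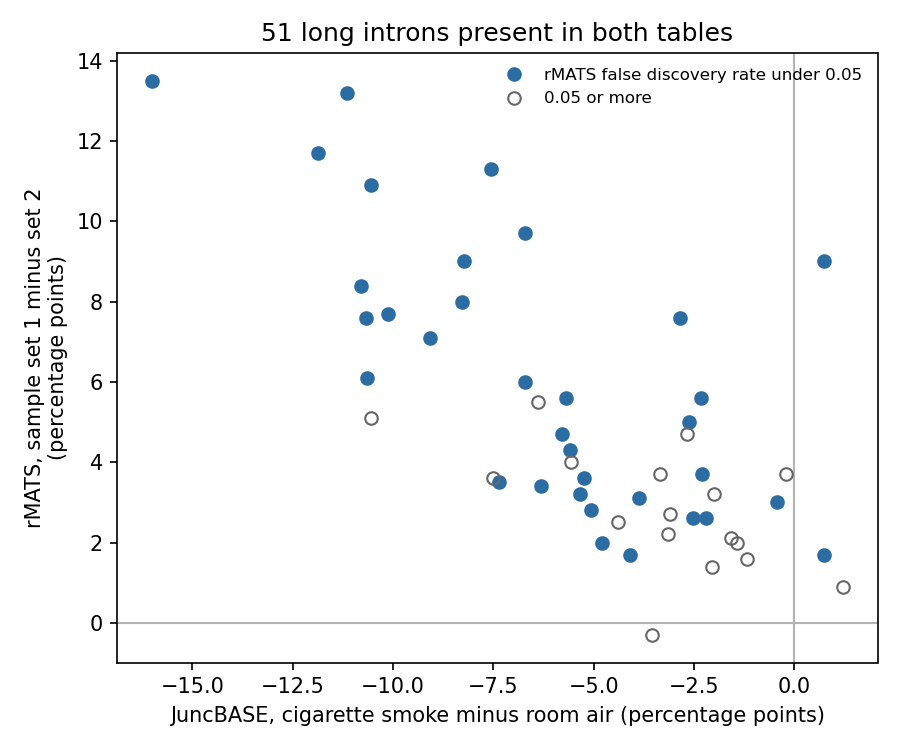
Difference of smoke minus room air by JuncBASE (x axis, percentage points) against set 1 minus set 2 in the authors' rMATS table (y axis, percentage points) for 51 long introns. Filled points have a false discovery rate under 0.05, and 50 of the 51 points lie above 0 on the y axis.

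The genes that hold the introns were called in both directions in expression. All 450 had an adjusted p in the authors' deposited table, and 44 were called (9.78%), against 7.69% of all tested genes. Of the 44, 21 were higher (4.67% of the hosts, against 4.15% of all genes) and 23 lower (5.11%, against 3.53%), with log2 fold changes between -0.69 and 0.73. Introns in higher hosts (22) were lower after smoke in 21 cases, by a median of -3.13 percentage points. Introns in lower hosts (27) were lower in 26 cases, by a median of -4.05. Over all 525 introns 94.1% were lower and the median was -3.69. Across 523 introns, Spearman's rho between the difference in retention and the log2 fold change of the host was 0.14. Hosts were strongly expressed, with a median room air mean of 551.0 normalized counts against 142.0 over all tested genes. The rule asks for a value in all 6 libraries, which bears on this difference, so it is not a trait of long introns. The number of libraries at 0% had a rho of -0.36 with the room air mean of the host.

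Among the called hosts, the log2 fold changes of largest size were those of Lsm4 and Ints6l. Lsm4, a ring protein of the U6 snRNP, was higher (0.73, SE 0.18, adjusted p = 0.00413 by DESeq2 in the authors' deposited table), and its intron had a value above 0% in room air replicate 2 alone (6.9%). Ints6l, a paralog of an Integrator subunit, was lower (-0.69, SE 0.2; in the authors' deposited table adjusted p = 0.0144), and its intron had 10.0%, 6.86% and 9.41% against 0.0%, 9.09% and 5.68%. Arl2, a small GTPase of tubulin folding, was higher (0.69, SE 0.16; in the authors' deposited table adjusted p = 0.0017). Its intron (chr19:6136060-6137477) had 7.69%, 10.0% and 0.0% in room air and 0.0%, 11.76% and 8.16% after smoke, a difference of 0.74 percentage points. The authors' deposited rMATS table called this intron at 9.0 points for set 1 minus set 2, which has no direction here. The 2 values cannot be compared in sign.

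Hpgds, the hematopoietic prostaglandin D synthase gene, was lower in expression (-0.65, SE 0.21; in the authors' deposited table adjusted p = 0.0313). Its intron (chr6:65120089-65123557) had 13.28%, 17.45% and 13.08% in room air and 8.11%, 6.25% and 9.29% after smoke, with no overlap and no zero. Atp5d, a subunit of ATP synthase, was higher (0.64, SE 0.15; in the authors' deposited table adjusted p = 0.00236), and its intron had 2.7%, 8.16% and 1.69% against 0.0%, 2.86% and 2.78%. Stab1, a scavenger receptor of macrophages, was lower (-0.61, SE 0.16; in the authors' deposited table adjusted p = 0.00561), with 5.56%, 4.76% and 2.74% against 0.0%, 0.0% and 4.0%. Grcc10 was higher (0.62, adjusted p = 0.0352 in the authors' deposited table), and its intron had 5.71%, 4.55% and 2.13% against 0.0%, 3.03% and 4.59%.

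Some RNAs that stay in the nucleus or the mitochondrion differed between the groups. Of 9 listed ones, 4 were called lower after smoke and 0 higher in the authors' deposited table, against 3.53% and 4.15% of all tested genes. In the authors' deposited table Malat1, a nuclear long noncoding RNA, had a log2 fold change of -1.30 (SE 0.27, adjusted p = 0.000428 by DESeq2). Neat1, the scaffold of paraspeckles, had -0.51 (SE 0.35; in the authors' deposited table adjusted p = 0.402). The mitochondrial ribosomal RNAs mt-Rnr1 and mt-Rnr2 had -1.66 (SE 0.4, adjusted p = 0.00219) and -1.70 (SE 0.4, adjusted p = 0.00156), again from the authors' deposited table. Their part in the lower retention of long introns was not tested.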

How the data were processed

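The authors deposited percent retention levels per event and library (JuncBASE), an rMATS table of p-values, false discovery rates and a difference score, and a DESeq2 table. That last table holds the signal (group means of normalized counts), the log2 fold change, the Wald score and p-values, per the file headers from a fit to 24 libraries, of which 18 are not used here. STAR, DESeq2, SAMtools 1.9, bedtools 2.27.1 and mm10 are named in the submitters' processing notes. Strand-specific libraries were made from total RNA per the labels' protocols. Library columns were matched to samples by their descriptions, from which they differ in prefix. The 6 per-sample columns of the rMATS table were not used.

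Levels p in percent became log2((p + 1)/(100 - p + 1)) and were fitted over all 10376 events by limma 3.58.1 (R 4.3.3) on group alone, with Benjamini-Hochberg adjustment. The code was tested on simulated data. Read counts per library were not used here, so no count test was run and no coverage minimum applied. Host genes, positions and exon overlap came from GENCODE M21. Members, lists and naming rules were chosen with earlier results of these data known. Named introns were the 10 of lowest limma p, the 3 most positive differences, the 3 longest, the 3 of highest level, those nearest the limits, the 8 of lowest rMATS false discovery rate, the 8 largest host fold changes among called hosts, up to 8 in each gene list, and genes with the most long introns, where 8 genes tied; some of these are not reported here. Pseudocounts, limits, thresholds, missing values, the replicate block and left-out libraries were varied.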

Additional observations from a re-analysis of the deposited data

How the results depend on the processing

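Of the alternatives, fitting only events with 6 values gave 3 long introns past the adjusted threshold (23 of all events) in place of 0. A limit of 2000 nt gave 91.6% of introns lower after smoke, and 91.1% were lower when introns with missing values were added. In the rMATS table, a difference of at least 10 percentage points left 5 calls of 34, and an adjusted p under 0.01 left 18 called host genes of 44 (366 of all tested genes). Same-numbered libraries had correlations of -0.011, -0.086 and -0.055 over 1992 introns, taken on deviations from the group means. With 3 libraries per group and many levels at 0%, such values cannot show whether the numbers pair the samples. With the replicate block 83 introns (672 of all events) had a limma unadjusted p under 0.05 and 0 passed the adjusted threshold. Leaving out each library in turn gave 0 to 117 introns past the adjusted threshold, 73 to 212 at an unadjusted p under 0.05, a mean difference of -5.03 to -3.48 percentage points, 88.2% to 95.4% lower and 38.5% to 53.9% without overlap, where fewer libraries have to be ordered. For Ppp2r5c the range was -0.06 to 0.46 log2 odds. Leaving out cigarette smoke replicates 1 and 2 together was chosen after seeing the data; it gave 76 introns at an unadjusted p under 0.05, with the spread taken from room air alone, a difference of -2.49 points, 81.7% lower and 46.3% without overlap. Apart from the construction named for the overlaps, the cause was not tested. Depth was not examined, so 0% was not told apart from a low level here.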
